A study of Lachancea kluyveri with 31 samples.

Results

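*HMX1* of the yeast *Lachancea kluyveri* (locus SAKL0F11242g, on chromosome F by its locus name) is the single gene described here, 1 of 5312 genes on the array. It was chosen by its measured log2 differences between low and high iron, which were below 0 in both strains without *AFT1* and above 0 in the strains with it. The differences between low and high iron within a strain, and the differences between these responses, are therefore given as descriptions with their errors and with no test. The array holds 2 probes for *HMX1*. Probe 1, which is in the best probe list of the study, gave the main values and probe 2 is set beside it.

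The study grew 4 strains at 2 iron levels and hybridized 1 array for each biological replicate, 31 arrays in all. The *sef1*Δ*aft1*Δ cells lacked the genes of the transcription factors Sef1 and Aft1, the *aft1*Δ cells lacked *AFT1*, the *sef1*Δ cells lacked *SEF1*, and the WT cells (strain JYL1897) were their parent. According to the strain list of the study all were MATa *ura3*, the deleted genes were replaced by drug-resistance markers (KanMX6, and HphMX4 for *AFT1* in the double mutant), and each strain was 1 named isolate. After growth overnight at 28°C in YPD, a rich medium, cells were diluted to 0.5 OD600/ml and kept for 5.5 h at 30°C in YPD with 200 of BPS (low iron; BPS chelates ferrous iron) or 400 of ferrous iron (high iron). The labels give these doses in mM and the methods in µM. Every group had 4 arrays except *sef1*Δ at high iron, which had 3.

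Heme oxygenase opens the heme ring and releases its iron. In *Saccharomyces cerevisiae*, Hmx1 sits in the endoplasmic reticulum membrane, its gene is induced during iron starvation through Aft1, and it lets the cell reuse iron held in heme. Aft1 in that yeast switches on iron uptake when iron is scarce, and Sef1 is known as an activator of iron uptake genes in *Candida albicans*.

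All 62 *HMX1* spots were well above background, none was saturated, and none was marked as an outlier. Each array was scaled by its 75th percentile, which lay between 10423.8 and 23243.7 intensity units, and 97.8% to 99.7% of its probes were well above background. Within groups, pairs of arrays correlated at 0.972 to 0.997 over all genes. The deleted genes matched the labels: on the arrays of *sef1*Δ*aft1*Δ and *aft1*Δ no *AFT1* spot was well above background, at low iron *AFT1* was at least 74.8-fold lower in *aft1*Δ than in WT, and *SEF1* at low iron differed by −4.96 (log2) in *sef1*Δ minus WT (SE 0.16, limma adjusted p = 2.32e-20). The strains were on separate slides, and the WT slide was scanned on another day than the 3 mutant slides. Strain and slide therefore cannot be told apart, nor can scan day and any mutant-minus-WT difference at one iron level. Also, low and high iron were in different rows of every slide, so iron level and slide row cannot be told apart.

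The values of *HMX1* are the log2 intensity minus the log2 of the array's 75th percentile, so that 0 marks a signal equal to that percentile. In *sef1*Δ*aft1*Δ cells at low iron, probe 1 read −4.91, −4.76, −4.51, and −3.47, with replicate 4 (the last) the highest. In the same strain at high iron it read −0.72, −0.80, −1.04, and −0.67. The 2 iron levels did not overlap, and every low-iron array was below every high-iron array. That low-iron replicate 4 also stood at the high end of its group in *SUE1*, *THI13*, and *LEU1* below, and without it the fall of *HMX1* in this strain was −3.92 in place of −3.60.

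In *aft1*Δ cells the low-iron arrays read −4.60, −3.85, −4.41, and −3.81, and the high-iron arrays −0.52, −1.11, −0.94, and −0.58. The picture was that of the double mutant, with all low-iron arrays far below all high-iron arrays. In deposited intensity, the low-iron spots of *aft1*Δ lay between 741 and 994 units and its high-iron spots between 7320 and 12867 units.

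In *sef1*Δ cells the order was turned round. The low-iron arrays read 0.88, 0.74, 0.48, and 0.33, and the 3 high-iron arrays −0.36, −1.23, and −1.81. These 3 arrays had the widest spread of the 8 groups (SD 0.73, n = 3), yet all were below the 4 low-iron arrays.

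In WT cells the low-iron arrays read 2.17, 1.78, 1.70, and 1.61, and the high-iron arrays 0.28, −0.21, −0.37, and −0.28. The low-iron WT arrays were the highest of all 31, with spot intensities of 60425 to 95612 units. The geometric mean intensity at low iron was 685.1 units in *sef1*Δ*aft1*Δ, 831.8 in *aft1*Δ, 27270 in *sef1*Δ, and 71910 in WT.

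**Figure D1:**
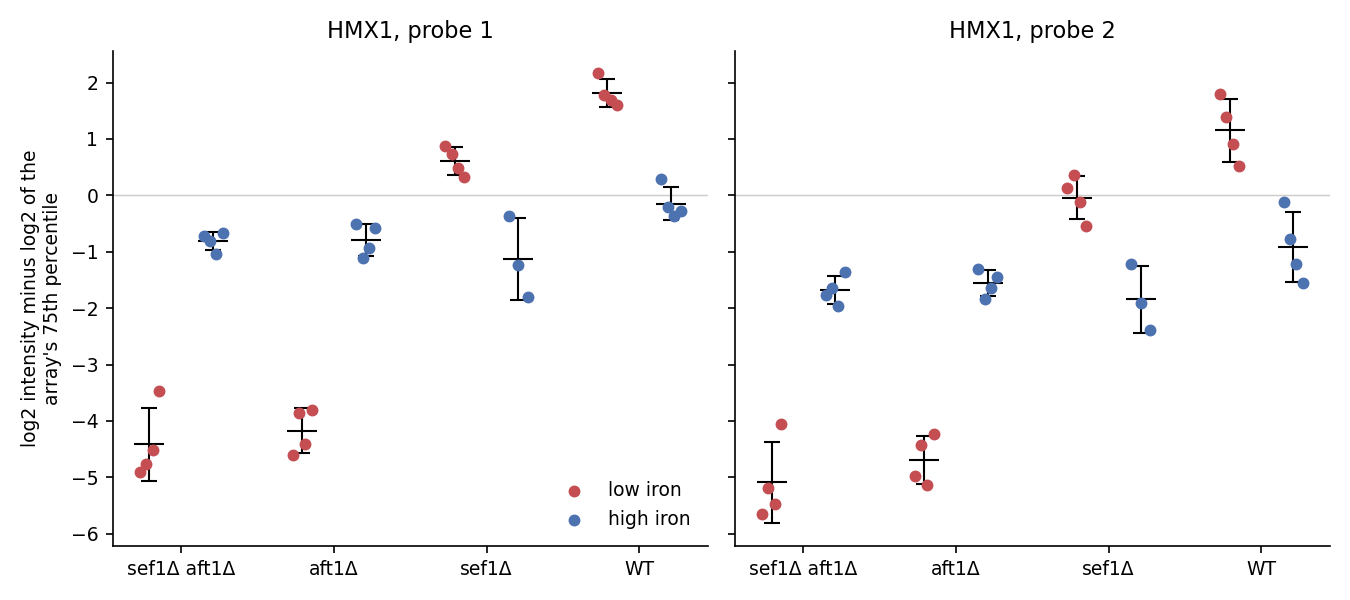
Normalized log2 signal of both *HMX1* probes (y axis) on every array, by strain (x axis), with low iron in red and high iron in blue; points are arrays, and bars are the group mean and SD (n = 4, and 3 for *sef1*Δ at high iron). The low-iron arrays of the strains without *AFT1* lie below −3.4 and all others above −2.4.

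Ordered by group mean, the levels were lowest in *sef1*Δ*aft1*Δ at low iron (−4.42 ± 0.65; SD, n = 4) and *aft1*Δ at low iron (−4.17 ± 0.40), which overlapped. Then came a middle cluster of 4 groups, *sef1*Δ at high iron (−1.13 ± 0.73), *sef1*Δ*aft1*Δ at high iron (−0.81 ± 0.17), *aft1*Δ at high iron (−0.78 ± 0.28), and WT at high iron (−0.15 ± 0.29). In that cluster the 3 mutants overlapped each other. The highest *sef1*Δ array just reached the lowest WT array, and the arrays of the other 2 mutants were all below WT. The 2 highest groups, *sef1*Δ at low iron (0.61 ± 0.25) and WT at low iron (1.81 ± 0.25), did not overlap each other and lay above every high-iron array.

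Against high iron, low iron lowered the *HMX1* signal of *sef1*Δ*aft1*Δ by a log2 fold change of −3.60 (SE 0.26), or 12.2-fold, and that of *aft1*Δ by −3.39 (SE 0.26), or 10.4-fold. It raised the signal of *sef1*Δ by 1.74 (SE 0.28), or 3.34-fold, and that of WT by 1.96 (SE 0.26), or 3.88-fold. Probe 2 gave −3.41, −3.14, 1.80, and 2.07 for these strains in the same order, and the 2 probes correlated at 0.994 over the 31 arrays. Both probes were read from the same cDNA, so their likeness bears on the spots and not on the cultures.

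Arrays with the same replicate number lay in the same column of a slide. Within these pairs, low minus high iron was −4.19, −3.96, −3.47, and −2.80 in *sef1*Δ*aft1*Δ and −4.08, −2.75, −3.48, and −3.23 in *aft1*Δ. It was 1.25, 1.97, and 2.29 in the 3 pairs of *sef1*Δ and 1.88, 1.99, 2.06, and 1.89 in WT. No pair went against its strain, and the WT pairs were spread over the narrowest range.

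The iron response of *sef1*Δ*aft1*Δ minus that of WT was −5.56 (95% interval −6.30 to −4.82), and that of *aft1*Δ minus WT was −5.34 (−6.08 to −4.60). The response of *sef1*Δ minus that of WT was −0.22 (−0.99 to 0.56), and that of *sef1*Δ*aft1*Δ minus *aft1*Δ was −0.22 (−0.96 to 0.53). The intervals of these last 2 differences include 0, so that with 3 or 4 arrays per group a change of the response within these bounds remains possible.

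At low iron, *HMX1* was lower than in WT by a difference of −6.23 in *sef1*Δ*aft1*Δ (74.8-fold) and of −5.98 in *aft1*Δ (63.1-fold). These differences follow from the opposite responses for which the gene was chosen, and were not tested. The gap of *aft1*Δ to WT can be split into 3 parts. Its own fall at low iron made up 56.6% of the gap, the rise that WT showed made up 32.7%, and the difference already present at high iron made up 10.7%. For the double mutant the shares were 57.9%, 31.4%, and 10.7%.

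The gene was not chosen by differences between strains at high iron, or between strains with the same direction of response at low iron. But these differences read the same arrays as the iron responses that chose it, so their p-values are not independent of that choice. The differences were tested with limma over all genes (called means a limma p of 0.05 or less after Benjamini-Hochberg adjustment over all genes, with a fold of 1.5 or more). There were 8 such pairs, and pairs with a strain in common share its arrays. At high iron, *HMX1* was lower than in WT in *sef1*Δ*aft1*Δ (−0.67, SE 0.26, limma adjusted p = 0.0266), in *aft1*Δ (−0.64, SE 0.26, adjusted p = 0.0319), and in *sef1*Δ (−0.99, SE 0.28, adjusted p = 0.00482). All 3 differences passed, each between slides scanned on different days, in comparisons where 9.98%, 14.2%, and 10% of all genes tested were called lower. Each call was lost in some other setting: the *aft1*Δ call was lost with probe 2 (adjusted p = 0.0765), those of *aft1*Δ and *sef1*Δ*aft1*Δ without WT replicate 1 (adjusted p = 0.12 and 0.104), and that of *sef1*Δ without its replicate 3 (adjusted p = 0.0865).

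Among the mutants at high iron no difference in *HMX1* passed the limma test, in comparisons that called 18.1%, 10.9%, and 18.5% of all genes in either direction. It was −0.03 for *sef1*Δ*aft1*Δ minus *aft1*Δ (95% interval −0.55 to 0.50, adjusted p = 0.943), 0.32 for *sef1*Δ*aft1*Δ minus *sef1*Δ (−0.24 to 0.89, adjusted p = 0.377), and 0.35 for *aft1*Δ minus *sef1*Δ (−0.22 to 0.92, adjusted p = 0.325). The last of these passed once *sef1*Δ replicate 1, the highest of the 3 arrays, was left out (0.74, adjusted p = 0.0408).

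At low iron, where both *sef1*Δ and WT had raised *HMX1*, the level was 2.30-fold lower in *sef1*Δ (−1.20, SE 0.26, limma adjusted p = 2.51e-04). All 4 *sef1*Δ arrays were below all 4 WT arrays, and probe 2 gave −1.19 (adjusted p = 0.00219), in a comparison where 11.5% of all genes were called lower. The call also held with each array left out, with differences of −1.30 to −1.09. The gap of 0.99 between *sef1*Δ and WT already present at high iron made up 82.1% of this low-iron gap. Both gaps lie between slides scanned on different days. Between the strains where *HMX1* had fallen, *sef1*Δ*aft1*Δ minus *aft1*Δ was −0.25 (95% interval −0.77 to 0.28, adjusted p = 0.429) and did not pass, where 26.5% of all genes were called in either direction.

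**Figure D2:**
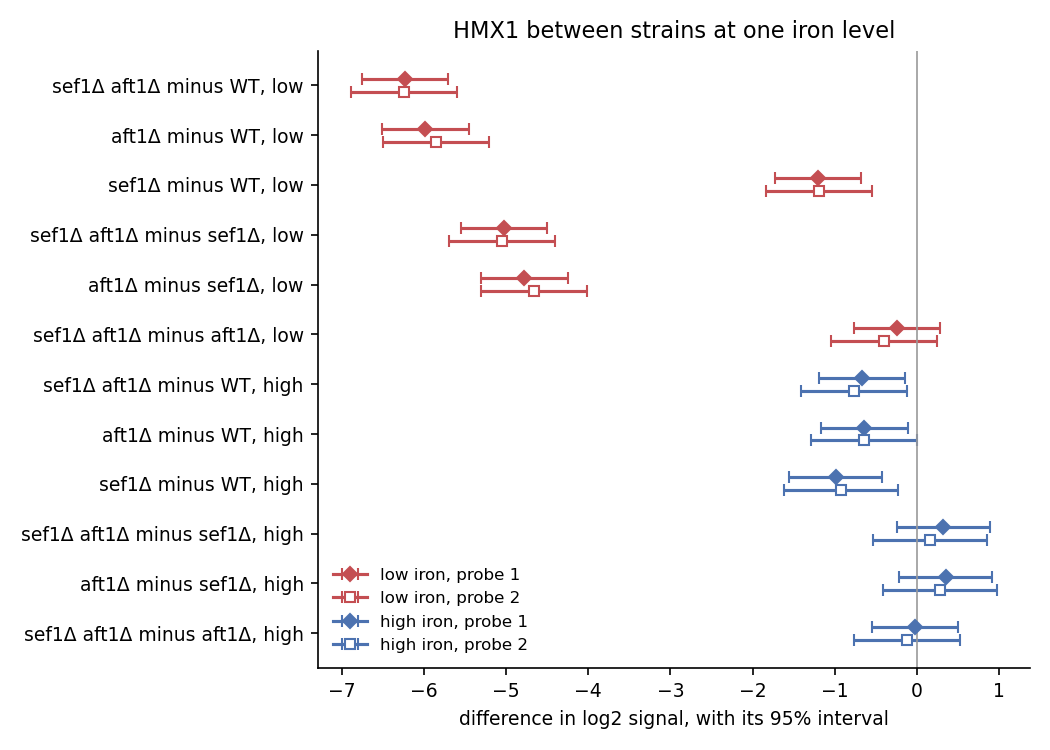
Differences in log2 *HMX1* signal between strains (x axis, first-named minus second-named strain) at low iron in red and at high iron in blue, with their 95% intervals; filled diamonds are probe 1 and open squares probe 2. The low-iron differences of *sef1*Δ*aft1*Δ and *aft1*Δ from WT, −6.23 and −5.98, lie far left of the high-iron differences of −0.67 and −0.64.

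Genes of iron uptake gave the setting for this response. The 28 other iron uptake related genes (ferric reductases, ferroxidases and permeases, siderophore carriers, copper and zinc carriers, and regulators such as *AFT1*, *YAP5*, and *CTH1*) were named by the study from these same arrays, so that their counts are not independent evidence of their direction. *ARN3*, a siderophore carrier, was well above background on none of the 31 arrays, so that only 27 of them were measured. At low iron 26 of 28 were called higher in *sef1*Δ, where 3.29% of all genes were, and 28 in WT, where 2.81% were, or 25 and 27 of the 27 measured. Their median log2 fold changes were 2.01 in *sef1*Δ and 2.09 in WT, against −0.01 and −0.01 over all genes, and the *HMX1* rises of 1.74 and 1.96 lay close to these medians.

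Without *AFT1* the 2 courses differed. In *sef1*Δ*aft1*Δ, 8 of the 28 were called higher (7.15% of all genes were) and 1 lower (7.49%), with a median of 0.29. In *aft1*Δ, 3 were called higher (1.47% of all genes) and 2 lower (1.84%), with a median of −0.04. The lowest value among the 28 was −0.59 in *sef1*Δ*aft1*Δ (*FET3*) and −1.04 in *aft1*Δ (*FRE5*), both far above the *HMX1* values of −3.60 and −3.39. Some of the 28 had less room to fall. In *aft1*Δ at high iron *FRE2* read −5.77 and *FRE3* −4.81, against −0.78 for *HMX1*. The lowest signal well above background on the *aft1*Δ low-iron arrays was −7.71 to −6.72. Others started high, such as *FET4* (0.10) and *CTR3* (1.24). Tested as a difference from the WT response, 23 of the 28 were called lower in *sef1*Δ*aft1*Δ (7.05% of all genes were) and 21 in *aft1*Δ (3.45%). This difference subtracts the WT rise for which the study named the genes, so its counts lean lower by that choice. The 23 include the deleted *AFT1* and the undetected *ARN3*, so that 21 of 26 measured genes were called lower in each strain. Of the 3 higher calls in *aft1*Δ, *AFT1* was read from spots not above background in that strain, *ARN3* was below background throughout, and *ZRT1*, a zinc carrier, rose by 2.02.

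**Figure D3:**
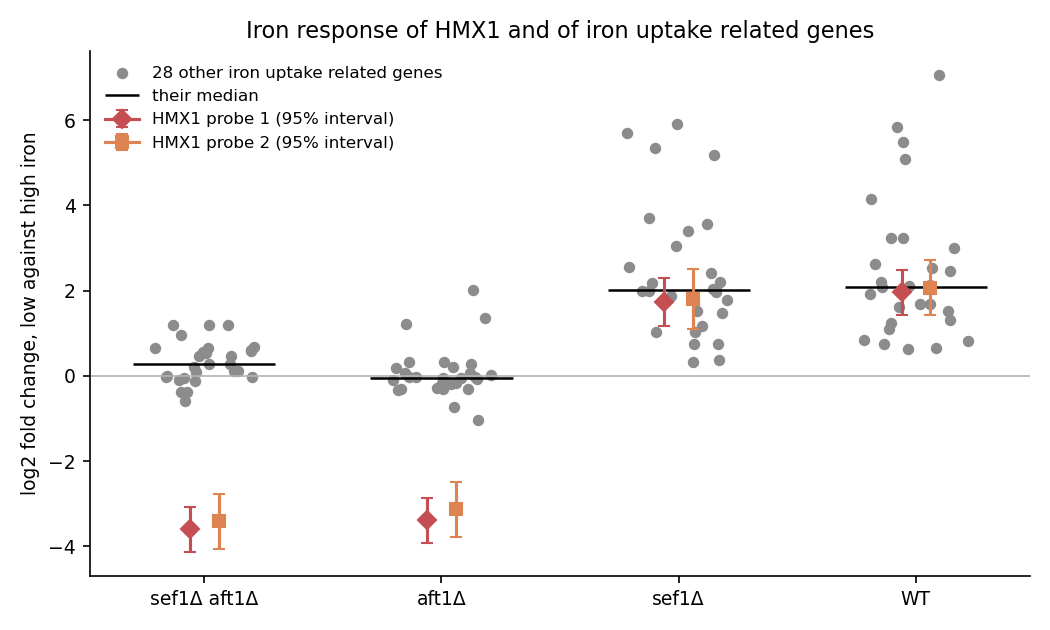
Log2 fold change at low against high iron (y axis) in each strain (x axis) for *HMX1*, as a diamond (probe 1) and a square (probe 2) with 95% intervals, and for 28 other iron uptake related genes in grey with their median as a line. *HMX1* lies near the median of 2.01 in *sef1*Δ and 2.09 in WT and below every grey point in *sef1*Δ*aft1*Δ and *aft1*Δ.

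Over the 5301 genes with signal well above background in at least 1 group, the fall of *HMX1* at low iron ranked 1 from the lowest in both *sef1*Δ*aft1*Δ and *aft1*Δ. Its rise ranked 24 from the highest in *sef1*Δ and, among 5297 genes, 18 in WT. For the response in *aft1*Δ minus that in WT, *HMX1* ranked 5 from the lowest, and *FRE2*, *FET3*, and *SIT1* were the lowest 3. These ranks follow from values that chose the gene, and are a description.

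Other genes with the 4 directions of *HMX1* were then looked for, leaving out *HMX1* itself, which was chosen for them. Of 84 other genes called higher at low iron in both WT and *sef1*Δ, low iron gave lower calls for 2 in *sef1*Δ*aft1*Δ (2.38%, against 7.49% of all genes) and for 3 in *aft1*Δ (3.57%, against 1.84%). All 4 calls together were met by 2 other genes, *FET3* and *THI13* (0.0565% of 5308 genes with *HMX1* counted in). The mirror image, lower in WT and *sef1*Δ and higher in both strains without *AFT1*, was met by 2 of the 5308 genes, among them *LEU1* (below).

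*FET3* (SAKL0B12056g) encodes the multicopper ferroxidase of high-affinity iron uptake. It was named for its calls on these same arrays, so that its p-values here are not independent of that choice. In *aft1*Δ it read −3.31, −3.46, −3.29, and −3.36 at low iron and −2.59, −2.70, −2.58, and −2.66 at high iron, a fall of 0.72 on the log2 scale (SE 0.11, limma adjusted p = 3.98e-05). In *sef1*Δ*aft1*Δ it read −2.77, −2.83, −2.91, and −2.92 at low iron and −2.02, −2.45, −2.34, and −2.26 at high iron, a fall of 0.59 (SE 0.11, adjusted p = 7.88e-05). The groups did not overlap in either strain, but the second fall was just past the fold threshold. It dropped under it with quantile normalization (−0.58), array-median scaling (−0.57), and normexp (−0.56), and without *sef1*Δ*aft1*Δ high-iron replicate 1 (−0.51), low-iron replicate 3 (−0.57), or low-iron replicate 4 (−0.57). Its rises were 5.34 in *sef1*Δ and 5.49 in WT, so *FET3* rose far more than *HMX1* and fell far less.

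*THI13* (SAKL0G11968g) belongs to the thiamine pathway, where its *S. cerevisiae* counterparts make the pyrimidine part of the vitamin. Its log2 fold changes were −1.08 in *sef1*Δ*aft1*Δ, −1.12 in *aft1*Δ, 1.40 in *sef1*Δ, and 0.85 in WT, all called by limma (adjusted p = 9.66e-04, 0.00361, 4.85e-04, and 0.0223 for these strains in the same order). *THI13* was named for these same 4 calls, so that the p-values restate that choice and are no further evidence. In *sef1*Δ*aft1*Δ the low-iron arrays read −1.56, −1.80, −1.43, and 0.08 and the high-iron arrays −0.60, −0.28, −0.26, and 0.73, so that the 2 levels overlapped and replicate 4 was the highest at each. The WT call was lost without WT high-iron replicate 1 (limma adjusted p = 0.0512) or replicate 2 (adjusted p = 0.0531), and *THI13* no longer met all 4 calls with the methods' t-test, adjusted or not.

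Likeness to *HMX1* was measured as Pearson's r over the 8 group means, among 5296 genes, as a description. The 10 highest were SAKL0E12474g (0.96), *DSE3* (0.96), *ERV2* (0.95), *SUE1* (0.95), *STE14* (0.93), SAKL0H06182g (0.93), SAKL0D10406g (0.93), SAKL0H06930g (0.92), SAKL0H01386g (0.91), and SAKL0G08184g (0.91). Most of them moved little, since r does not read size: *DSE3* changed by −0.53, −0.37, 0.38, and 0.09 at low against high iron in *sef1*Δ*aft1*Δ, *aft1*Δ, *sef1*Δ, and WT. The naming rested on the measure, as only 4 of the 10 were also among the top 10 by Pearson's r over the 31 arrays and 2 by Spearman's rho over the group means. The r values of 27 iron uptake related genes lay between −0.51 (*CTR2*) and 0.78 (*FRE5*), with a median of 0.61.

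*SUE1* (SAKL0F02618g) stood out of these 10 by size. It was picked by its likeness to *HMX1* on these same arrays, so that its p-values below are not independent of that choice. In *S. cerevisiae* Sue1 is needed in mitochondria to degrade unstable forms of cytochrome c, a heme protein. The *SUE1* arrays of *aft1*Δ read −3.53, −3.21, −3.49, and −3.40 at low iron and −0.997, −1.46, −1.55, and −1.54 at high iron, a log2 fold change of −2.02 (SE 0.19, limma adjusted p = 1.47e-08). Those of *sef1*Δ*aft1*Δ read −3.01, −2.91, −2.86, and −2.26 at low iron and −0.20, −0.82, −0.76, and −0.52 at high iron, a change of −2.19 (SE 0.19, adjusted p = 2.3e-10). No low-iron array reached a high-iron array in either strain.

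In the strains with *AFT1* the changes of *SUE1* were smaller. The 0.39 of *sef1*Δ did not pass (SE 0.21, limma adjusted p = 0.207), while *SUE1* rose by 0.89 in WT (SE 0.19, adjusted p = 0.00156), so that *SUE1* did not meet all 4 calls. Its response in *aft1*Δ minus that in WT was −2.90 (adjusted p = 2.94e-09). Over the 31 arrays *SUE1* and *HMX1* correlated at 0.94, over points that share their arrays and their 8 groups.

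The 3 genes least like *HMX1* were *HIS5* (r = −0.94), SAKL0E08734g (−0.93), and *LEU1* (−0.93). *LEU1* (SAKL0H21868g), whose *S. cerevisiae* product is an iron-sulfur enzyme of leucine synthesis, moved in the opposite direction in every strain, by less than *HMX1*. Its log2 fold changes at low iron were 1.78 in *sef1*Δ*aft1*Δ, 1.01 in *aft1*Δ, −1.46 in *sef1*Δ, and −1.83 in WT, all called by limma (largest adjusted p = 1.02e-05). *LEU1* was picked by its correlation with *HMX1* on these same arrays, so that these p-values are not independent of that choice. In *aft1*Δ its low-iron arrays read between 2.95 and 3.36 and its high-iron arrays between 2.02 and 2.18.

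**Figure D4:**
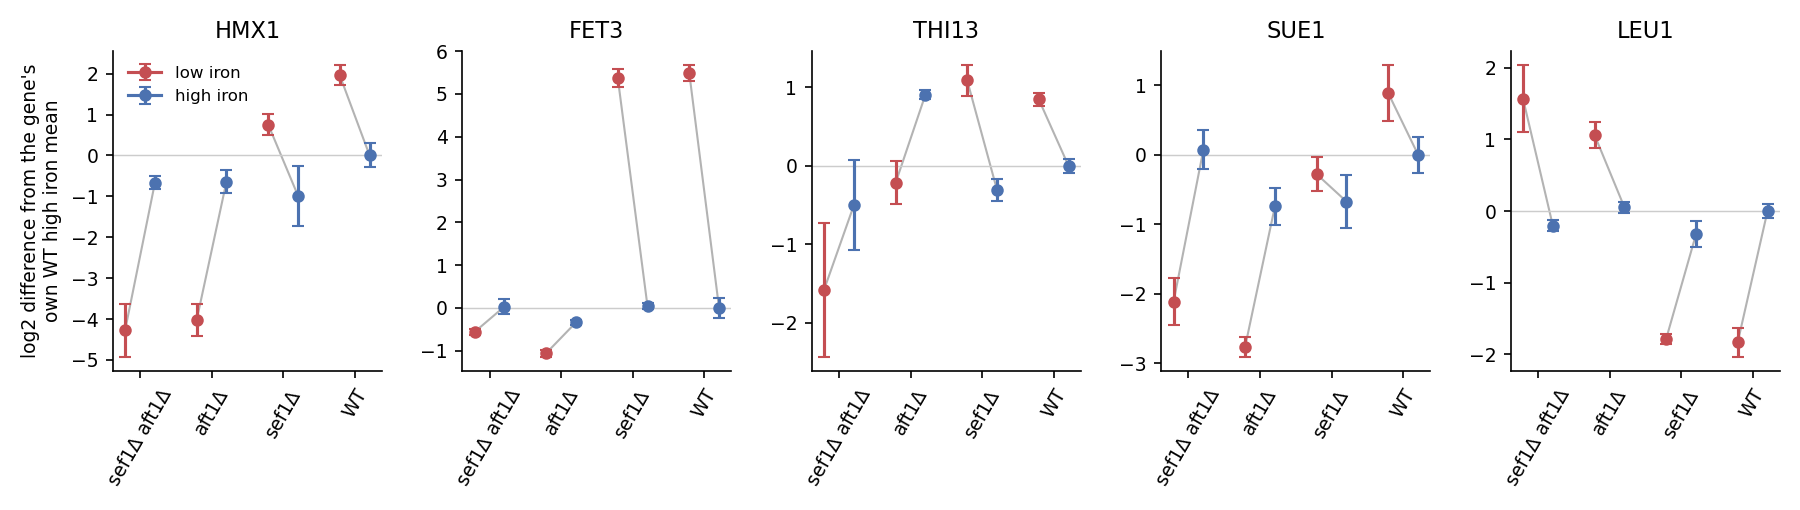
Group means and SD of *HMX1*, *FET3*, *THI13*, *SUE1*, and *LEU1* (n = 4, and 3 for *sef1*Δ at high iron), each as the log2 difference from its own WT high-iron mean (y axis; the scale differs between panels), by strain (x axis), with low iron in red and high iron in blue. Grey lines join the 2 iron levels of a strain; in *SUE1* and *HMX1* they drop toward low iron in the strains without *AFT1*, by −2.19 and −2.02 for *SUE1* and by −3.60 and −3.39 for *HMX1*.

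Since Hmx1 acts on heme, some genes that make heme and some whose proteins carry it were listed beside it. Neither list is complete. The list of heme synthesis holds 6 genes: *HEM1* (the first step), *HEM3*, *HEM12*, *HEM13* (coproporphyrinogen oxidase), *HEM14*, and *HEM15* (ferrochelatase, which inserts the iron). Of the 6, limma called 0 in either direction for the iron response of *sef1*Δ*aft1*Δ, where 7.15% of all genes were called higher and 7.49% lower, and 0 for that of *aft1*Δ, where 1.47% and 1.84% were. At these shares a count of 0 among 6 genes does not set the list apart. At an unadjusted limma p under 0.05 and any fold, 1 of the 6 differed in the double mutant and 3 in *aft1*Δ, and the methods' t-test with its fold threshold called 0 in both. In *sef1*Δ, *HEM3* fell by 0.69 (limma adjusted p = 0.00306), where 2.52% of all genes were called lower, and in WT *HEM13* fell by 0.69 (adjusted p = 1.62e-04) and *HEM14* by 0.62 (adjusted p = 7.92e-04), where 1.9% of all genes were called lower. Under quantile normalization neither WT call reached the fold threshold (−0.55 and −0.57).

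The list median was 0.01 in *sef1*Δ*aft1*Δ and 0.17 in *aft1*Δ, and it was −0.42 in *sef1*Δ and −0.57 in WT. Tested as a difference between responses, 4 of the 6 genes were called higher in *aft1*Δ than in WT (*HEM1* 0.92, *HEM13* 1.11, *HEM14* 0.67, and *HEM15* 0.83), in a comparison where 2.15% of all genes were. In *sef1*Δ*aft1*Δ minus WT, *HEM13* (1.101) and *HEM14* (0.72) were called, where 6.61% of all genes were called higher. Without *AFT1* the iron responses of the 6 genes lay between −0.04 and 0.42 in both strains. The count of lower calls in *sef1*Δ was 2 without its low-iron or its high-iron replicate 1. In WT it was 4 without high-iron replicate 2, 3 without high-iron replicate 1 or low-iron replicate 2, 3, or 4, and 1 without low-iron replicate 1 or high-iron replicate 4.

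Of 9 genes for heme proteins, low iron brought 5 lower calls in *sef1*Δ*aft1*Δ, 6 in *aft1*Δ, 8 in *sef1*Δ, and 6 in WT, where 7.49%, 1.84%, 2.52%, and 1.9% of all genes were. Without *sef1*Δ high-iron replicate 1 the count of *sef1*Δ was 5. Only *YHB1*, a flavohemoglobin that removes nitric oxide, was called higher, in *sef1*Δ*aft1*Δ (0.79, limma adjusted p = 5.86e-05). Cytochrome c peroxidase (*CCP1*), cytosolic catalase (*CTT1*), and cytochrome b5 (*CYB5*) were called lower in all 4 strains. With single arrays left out, *CYB5* in *sef1*Δ ranged from −0.76 to −0.49 and did not keep its call throughout. *CCP1* changed by −1.87 in *sef1*Δ*aft1*Δ, −1.13 in *aft1*Δ, −0.96 in *sef1*Δ, and −0.73 in WT.

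Cytochrome c (*CYC1*, SAKL0D11858g) had the largest fall of the 9 in both strains without *AFT1*, while *CTT1* fell further in *sef1*Δ (−1.21) and *DAP1* in WT. *CYC1* changed by −2.50 in *sef1*Δ*aft1*Δ (SE 0.17, limma adjusted p = 2.68e-12), −1.495 in *aft1*Δ (SE 0.17, adjusted p = 6.35e-07), and −1.16 in *sef1*Δ (SE 0.19, adjusted p = 4.43e-05), while the −0.27 of WT did not pass (SE 0.19, adjusted p = 0.372; 1 low-iron spot was marked as an outlier and left out). The response in *sef1*Δ*aft1*Δ minus that in WT was −2.23 and that in *aft1*Δ minus WT −1.23, both called. Unlike *HMX1*, *CYC1* thus fell in *sef1*Δ as well. *DAP1*, whose *S. cerevisiae* product binds heme, fell by 0.86 in *sef1*Δ and by 0.91 in WT and was called in neither *sef1*Δ*aft1*Δ nor *aft1*Δ (0.04 in *aft1*Δ).

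**Figure D5:**
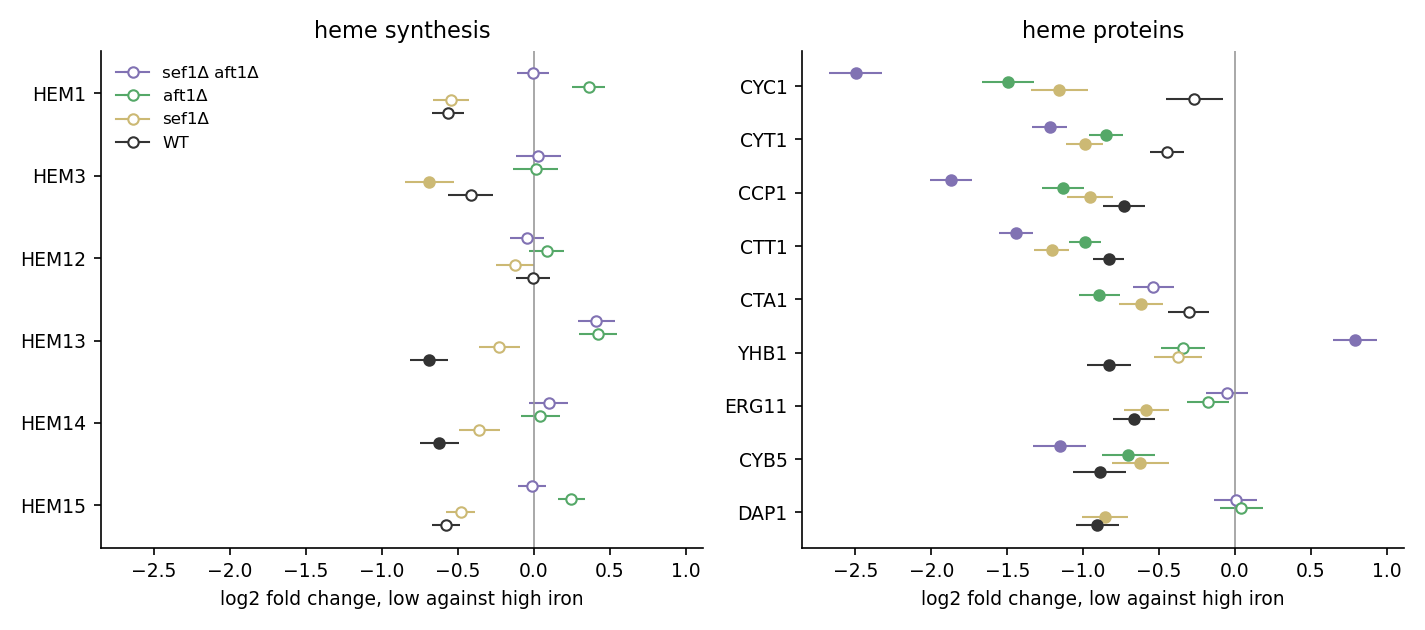
Log2 fold change at low against high iron (x axis, with SE) for 6 heme synthesis genes and 9 genes of heme proteins (y axis) in *sef1*Δ*aft1*Δ (violet), *aft1*Δ (green), *sef1*Δ (yellow), and WT (black); filled points were called and open points were not. No heme synthesis gene was called in the strains without *AFT1*, which does not set these 6 genes apart, since calls were few on the whole array. Higher calls covered 7.15% of its genes in *sef1*Δ*aft1*Δ and 1.47% in *aft1*Δ, and lower calls 7.49% and 1.84%. *CYC1* reached −2.50 in *sef1*Δ*aft1*Δ.

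Genes for iron in mitochondria and vacuole and for peroxide defense were counted too, in strains where 7.15% (*sef1*Δ*aft1*Δ), 1.47% (*aft1*Δ), 3.29% (*sef1*Δ), and 2.81% (WT) of all genes were called higher and 7.49%, 1.84%, 2.52%, and 1.9% lower. The vacuolar iron importer *CCC1* was called lower at low iron in all 4 strains, by −0.66 in *sef1*Δ*aft1*Δ, −0.87 in *aft1*Δ, −1.16 in *sef1*Δ, and −1.32 in WT. Of the other 4 genes of this list, *NFS1*, the cysteine desulfurase of iron-sulfur cluster assembly, rose by 0.78 in *sef1*Δ*aft1*Δ, the mitochondrial iron carrier *MRS4* rose by 0.67 in *sef1*Δ, and none was called in *aft1*Δ or WT. Of 6 genes for peroxide and glutathione defense, 3 of which are also heme proteins, 2 were called lower in *sef1*Δ*aft1*Δ, 3 in *aft1*Δ, 3 in *sef1*Δ, and 2 in WT, all of them heme proteins (*CCP1*, *CTT1*, and *CTA1*), and *PRX1*, a mitochondrial peroxiredoxin, rose by 0.76 in *sef1*Δ*aft1*Δ.

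Loci beside *HMX1* were read as well. Of the 3 on each side by locus number, SAKL0F11176g, SAKL0F11198g, SAKL0F11264g, SAKL0F11286g, and *CDC36* were called in no strain at low against high iron. The share of all genes called ran from 1.47% (higher in *aft1*Δ) to 7.49% (lower in *sef1*Δ*aft1*Δ). At these shares the lack of a call does not set these loci apart. The nearest lower locus, SAKL0F11220g, read −9.08 in *sef1*Δ*aft1*Δ and −9.13 in *aft1*Δ at low iron and −6.88 and −7.42 at high iron. It was well above background on 1 of 4 and 0 of 4 of these low-iron arrays, so that no fold is given for *aft1*Δ, where the high-iron mean lay below the lowest signal that counted as above background at low iron.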

How the data were processed

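RNA of *L. kluyveri* was measured on 31 one-color custom Agilent arrays. The authors scanned them and deposited, for every spot, the intensity given by Agilent Feature Extraction 10.5.1.1, after background subtraction and spatial detrending and with no scaling between arrays, and log2 values of all probes scaled to the 75th percentile. From the deposited intensity, the log2 was taken, spots marked as non-uniform outliers were left out, and the log2 of the array's 75th percentile over 10620 gene probes was subtracted. *HMX1* has 2 probes. For other genes 1 probe was used, from the study's best probe list (1998 genes), another table of the study (918 genes), or the higher mean signal (2396).

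One limma 3.58.1 model (R 4.3.3) with a mean for each of 8 groups was fitted over all genes, and a gene was called where the p adjusted by Benjamini-Hochberg was 0.05 or less and the fold 1.5 or more. The steps were tested on simulated data. Named were *HMX1*, *SEF1*, *AFT1*, the genes of 5 lists (iron uptake related, heme synthesis, heme proteins, iron in mitochondria and vacuole, peroxide and glutathione), genes called in the 4 directions of *HMX1*, the 10 most and 3 least like it, and 3 loci on each side. The gene and the lists were chosen with earlier results of these data known. Deviations of same-numbered low- and high-iron arrays from their group means correlated in *sef1*Δ*aft1*Δ (r = 0.242 to 0.53), *aft1*Δ (0.119 to 0.286), and WT (0.123 to 0.48). In *sef1*Δ they did so less (−0.095 to 0.223), in a range that overlapped those of *aft1*Δ and WT. Alternatives were another probe, their mean, quantile and median scaling, normexp with an offset of 50, the values of the authors, outlier spots left in, dim probes removed, fewer arrays in the fit, the methods' t-test, trend and robust options, a stricter fold, a replicate block, and each array left out. The precision is limited by 3 or 4 arrays per group. A fold given as "at least" sets the bright group's mean against, on each dim array, the higher of the probe's own signal and the lowest signal well above background. No genome sequence was used here. Python 3.11.15, numpy 2.4.6, pandas 2.3.3, the R package data.table (version 1.17.8), and matplotlib 3.10.9 served for reading and plotting.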

Additional observations from a re-analysis of the deposited data

Results flagged for a closer look

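The iron response of *HMX1* ran in opposite directions in different strains, with all low-iron arrays below all high-iron arrays in *sef1*Δ*aft1*Δ and *aft1*Δ and above them in WT. The response in *sef1*Δ*aft1*Δ minus that in WT was −5.56 and that in *aft1*Δ minus WT −5.34, and the difference was not tested, because the gene was chosen for it. Other genes set beside it had responses that differed between strains by limma's test of the difference. Of these, *FET3* and *THI13* were picked by their calls on these same arrays. *SUE1* and *LEU1* were picked by their correlation with *HMX1* over the same group means. Their tests are therefore not independent of that choice. For *FET3* the response minus that in WT was −6.08 in *sef1*Δ*aft1*Δ and −6.21 in *aft1*Δ, for *THI13* −1.93 and −1.97, for *SUE1* −3.07 and −2.90, and for *LEU1* 3.61 and 2.85. Of the iron uptake related genes, 23 in *sef1*Δ*aft1*Δ and 21 in *aft1*Δ were called lower in this difference, where 7.05% and 3.45% of all genes were. Without the deleted *AFT1* and the undetected *ARN3* the count was 21 in each strain. The study named these genes for their rise in WT on these same arrays. That rise is subtracted here, so the counts lean lower by the choice of the list and are not independent evidence.

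Among genes of heme synthesis the response minus that in WT was 1.101 for *HEM13* and 0.72 for *HEM14* in *sef1*Δ*aft1*Δ, and 0.92 for *HEM1*, 1.11 for *HEM13*, 0.67 for *HEM14*, and 0.83 for *HEM15* in *aft1*Δ. Among heme proteins it was −2.23 for *CYC1*, −0.77 for *CYT1*, −1.14 for *CCP1*, −0.61 for *CTT1*, 1.62 for *YHB1*, 0.61 for *ERG11*, and 0.91 for *DAP1* in *sef1*Δ*aft1*Δ, and −1.23 for *CYC1* and 0.95 for *DAP1* in *aft1*Δ. Set against *aft1*Δ, the response of *sef1*Δ*aft1*Δ was −1.003 for *CYC1*, −0.74 for *CCP1*, 1.13 for *YHB1*, and 0.76 for *LEU1*.

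In 2 of 55 groups of 4 arrays 1 array stood apart by Dixon's gap test, which chance gives in about 1 of 20 groups. *SUE1* read −0.997 on *aft1*Δ high-iron replicate 1, against −1.55 to −1.46 on the other 3. *CYC1* read 2.57 on *sef1*Δ*aft1*Δ high-iron replicate 1, against 2.09 to 2.17 on the other 3. No group of 4 arrays of *HMX1* was marked in this way with either probe, and *sef1*Δ at high iron, with 3 arrays, was not tested.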

How the results depend on the processing

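The low-against-high-iron changes of *HMX1* kept their sign in all 4 strains under every alternative run. The gene was chosen for these signs on these same arrays, so that this is a description. With the replicate number as a block (the pairing of same-numbered arrays) the changes were −3.60 in *sef1*Δ*aft1*Δ, −3.39 in *aft1*Δ, 1.83 in *sef1*Δ, and 1.96 in WT. The call of *sef1*Δ against WT at low iron also held in every alternative. With normexp the low-iron difference of *sef1*Δ*aft1*Δ from WT moved to −5.76, that of *sef1*Δ*aft1*Δ from WT at high iron lost its call (−0.52, adjusted p = 0.0731), and the uncalled differences of *sef1*Δ*aft1*Δ from *aft1*Δ turned to 0.18 at high and 0.13 at low iron. At high iron, *aft1*Δ against WT lost its call with probe 2 (−0.64), *sef1*Δ against WT lost it with the methods' t-test, adjusted or not (−0.99), and all 3 (−0.67, −0.64, and −0.99) were lost at a fold of 2. With 1 array left out these 3 ranged from −0.74 to −0.52 for *sef1*Δ*aft1*Δ, −0.73 to −0.50 for *aft1*Δ, and −1.37 to −0.65 for *sef1*Δ. The ranges were −0.13 to 0.062 for *sef1*Δ*aft1*Δ against *aft1*Δ, −0.015 to 0.71 for *sef1*Δ*aft1*Δ against *sef1*Δ, and 0.012 to 0.74 for *aft1*Δ against *sef1*Δ at high iron. The iron response of *sef1*Δ minus that of WT ranged from −0.55 to 0.17 and was above 0 only without *sef1*Δ high-iron replicate 1. The cause of these changes was not tested.

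With *HMX1*, which was chosen for its 4 directions and for which a call says nothing, 3 genes met them, against 1 with the methods' t-test after Benjamini-Hochberg (*FET3*), 1 at a fold of 2 (neither *FET3* nor *THI13*), and 2 to 3 with 1 array left out. Of the uptake genes, the 1 called lower in *sef1*Δ*aft1*Δ became 0 with quantile or median scaling, normexp, or a fold of 2, and ranged from 0 to 1 with 1 array left out. The 8 called higher there became 3 at a fold of 2. In *aft1*Δ the 3 called higher became 1 with normexp and with the methods' t-test after Benjamini-Hochberg, and the 2 called lower became 1 at a fold of 2. *ARN3*, never above background, turned to −0.47 in WT and to 0.69 in *sef1*Δ*aft1*Δ minus WT with normexp. The replicate block ended 1 call among the named results, *CTT1* in *sef1*Δ*aft1*Δ minus WT (−0.57).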
